A study of Homo sapiens and Mus musculus with 21 samples.

Results

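S100 proteins are small calcium-binding proteins, and 10 of their genes (S100A2, S100A3, S100A4, S100A6, S100A10, S100A11, S100A13, S100A14, S100A16 and S100P) were followed in human colon carcinoma xenografts. They were taken by name from the 58336 human genes measured, of which 22981 were tested. The annotation names 21 human S100 protein-coding genes, and all 10 of the genes followed here passed the filter on low values. The hosts were immunodeficient NSG mice, whose caecum was harvested 28 days after SW480 or SW620 cells had been injected into its wall. SW480 is a line from a primary colon adenocarcinoma and SW620 a line from a lymph node metastasis of the same patient. The 18 xenograft libraries form 6 groups of 3. SW480 cells carried either dnLEF1 (dominant negative LEF1, a blocked version of a Wnt-pathway transcription factor, brought in by lentivirus) or a Mock lentivirus. SW620 cells carried dnLEF1, the Mock lentivirus, or an LRP6 CRISPR knockout (LRP6KO) aimed at the Wnt co-receptor, or were Cas9 controls put through a mock CRISPR transfection and sorting. The LRP6KO cells had been selected with puromycin and sorted for low LRP6 protein, so they are a sorted population and not a named clone. The design calls the replicates biological triplicates, but the labels do not tie them to separate animals. The p-values therefore measure the spread between these samples.

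An S100 protein binds calcium through a pair of EF-hand motifs, usually as a dimer, and the calcium-bound form exposes a surface that grips a target protein. Targets include annexins on membranes and the heavy chain of non-muscle myosin, and some members are also released from cells and act on receptors such as RAGE, encoded by AGER. Most of the genes lie in a cluster in the epidermal differentiation region of chromosome 1, while S100P lies on chromosome 4. S100A4, also called metastasin, binds non-muscle myosin IIA and has been studied for its association with invasion and metastasis, including as a Wnt-responsive gene in colon cancer cells. Wnt signalling reaches genes through β-catenin bound to TCF/LEF factors, and dnLEF1 occupies the same DNA sites without binding β-catenin.

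S100A4 (ENSG00000196154.11; GRCh38 chromosome 1, 153543613 to 153550136, minus strand) and S100A3 (ENSG00000188015.9; 153547329 to 153549372, same strand) overlap as loci. S100A3 lies inside an intron of a long S100A4 transcript, and 0 of its 955 exon bases are shared with S100A4 exons. The stretches before their RefSeq starts are shown because these adjacent genes moved in opposite directions in SW480. Both are written 5′ to 3′ from GRCh38.p14, minus strand, without the bases that an annotated exon covers (114 for S100A3, 79 for S100A4). Capitals mark a match to the AP-1 motif TGANTCA.
S100A3, chr1:153549373-153549508: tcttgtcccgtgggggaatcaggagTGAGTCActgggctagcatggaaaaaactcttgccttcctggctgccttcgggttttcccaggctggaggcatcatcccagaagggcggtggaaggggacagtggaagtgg
S100A4, chr1:153545886-153546056: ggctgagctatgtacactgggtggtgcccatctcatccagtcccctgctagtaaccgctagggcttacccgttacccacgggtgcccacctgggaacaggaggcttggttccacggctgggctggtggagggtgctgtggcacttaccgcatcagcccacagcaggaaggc
No capitals appear in the S100A4 stretch because it holds no match to the motifs searched. RefSeq gave 14 start windows for the 10 genes, each running from 250 bases before to 50 bases after a start, and both strands were searched. The TCF/LEF core, searched as CTTTGA or CTTTGT, was in 1 of the 14 windows (S100A13) and in 26.2% of all 35116 windows. The AP-1 motif was in 2 windows (S100A2, S100A3) against 7.71% of all windows. TATAAA was in 3 (S100A4, S100A13, S100P) against 11.5%, and the match of S100A4 lies among the exon-covered bases left out above. A match is a run of letters and not evidence of binding.

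Values are TPM, relative transcript abundances that are scaled by transcript length, so that levels of different genes can be compared, and by the library's human total. The 18 libraries listed 24665 to 34709 human genes above 0, and their read depth is unknown, since TPM keeps none. Epithelial markers (8 genes, EPCAM and keratins among them) summed to 8740 to 21250 TPM per library, although KRT20 stayed under a group mean of 1 TPM throughout and CDX2 did so in SW620 dnLEF1. Markers of stroma (14 genes) summed to 21.5 to 77.4 TPM. LEF1, which the dnLEF1 construct encodes in part, was at 47.2 to 99.4 TPM in SW480 dnLEF1 against 5.09 to 14.8 in SW480 Mock, and at 18.2 to 24.0 in SW620 dnLEF1 against 0.30 to 0.80 in SW620 Mock. AXIN2, a Wnt target, fell in SW480 dnLEF1 (log2 change -0.94 ± 0.19, SE; limma adjusted p = 0.0147, and 0.0634 without SW480 dnLEF1 replicate 2, in a range of 0.013 to 0.224) and changed by -0.13 in SW620 (adjusted p = 0.897). That SW620 change of AXIN2 is against Mock, which had 24.3, 26.1 and 29.7 TPM, beside 34.0, 22.0 and 19.2 in dnLEF1. Cas9, the other SW620 control, had 44.2, 33.8 and 37.5 TPM, so the reading depends on the control used. SW620 dnLEF1 was not tested against Cas9. LRP6 was at 21.1, 18.8 and 17.4 TPM in the libraries labelled LRP6KO and at 10.9, 17.8 and 17.5 in those labelled Cas9, so its transcript was not lower under that label.

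The 10 S100 genes together made up 1.37% ± 0.0897 (SD, n = 3) of the human transcript pool in SW480 Mock and 1.39% ± 0.142 in SW480 dnLEF1. Their share was 1.16% ± 0.0718 in SW620 Mock, 1.02% ± 0.0279 in LRP6KO, 0.985% ± 0.0145 in Cas9 and 0.975% ± 0.0223 in SW620 dnLEF1. On the TPM scale, S100A4 (mean 3271 over the 18 libraries), S100A6 (2943), S100A11 (1869) and S100A10 (1638) were the most abundant of the 10. S100A4 ranked between place 17 and place 72 among all human genes in every library. S100A16 (661.7), S100A13 (418.8), S100A2 (387.5), S100A3 (212.8), S100P (84.6) and S100A14 (9.04) followed.

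**Figure D1:**
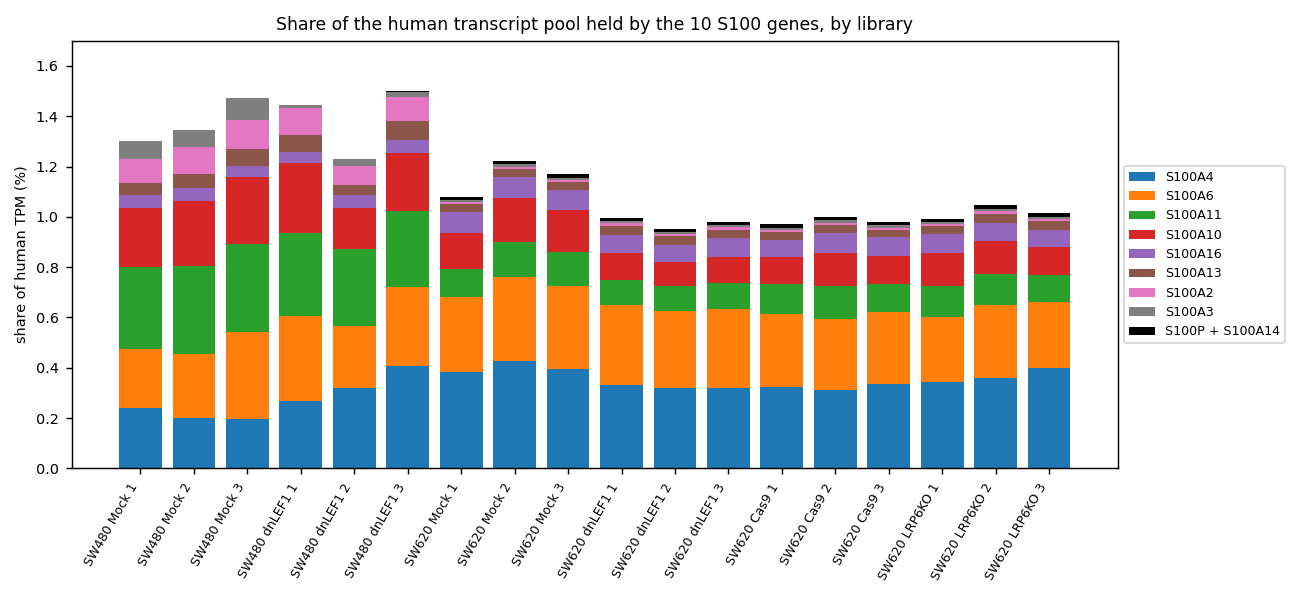
Share of the human transcript pool (percent of TPM) held by the 10 S100 genes in each of the 18 libraries, as stacked bars coloured by gene. S100A4, S100A6, S100A10 and S100A11 fill most of each bar, and the bars average 1.37% in SW480 Mock and 1.16% in SW620 Mock.

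S100A4 was lowest in SW480 Mock, with 2421, 1986 and 1981 TPM in replicates 1 to 3. SW480 dnLEF1 had 2685, 3209 and 4083 TPM. SW620 Mock had 3817, 4280 and 3964 TPM. SW620 LRP6KO followed with 3435, 3606 and 4002 TPM, SW620 Cas9 with 3233, 3121 and 3357, and SW620 dnLEF1 with 3303, 3206 and 3194. Ordered by mean, the groups ran SW620 Mock (4021 ± 236.6, SD, n = 3), LRP6KO (3681 ± 290.6), SW480 dnLEF1 (3326 ± 706.2), Cas9 (3237 ± 117.9), SW620 dnLEF1 (3234 ± 59.9) and SW480 Mock (2129 ± 252.6). Each neighbouring pair in that order overlapped except the last, in which all 3 SW480 Mock libraries were below all 3 SW620 dnLEF1 libraries.

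**Figure D2:**
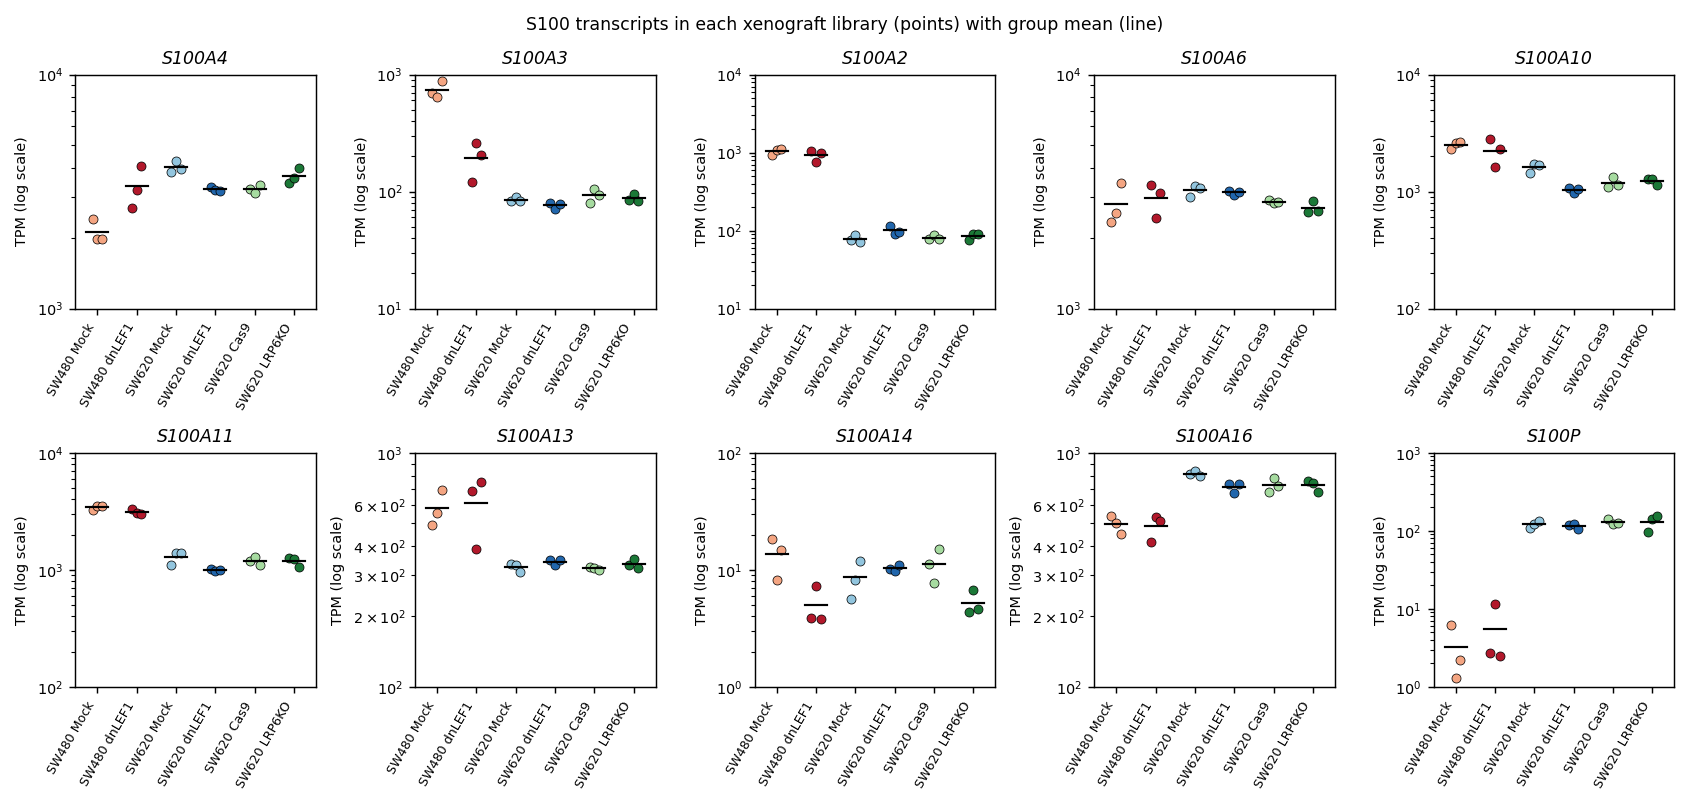
TPM (log scale) of each S100 gene in every xenograft library, 1 point per library in the 6 groups of 3, with a line at the group mean. S100A4 is lowest in SW480 Mock (mean 2129), S100A3 falls from a mean of 740.6 in SW480 Mock to 194.4 in SW480 dnLEF1, and S100P separates the SW480 groups from the SW620 groups.

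In SW480 tumours, the question was which S100 genes change when LEF1/TCF-driven transcription is blocked. Of the 10 genes, 3 passed the test in dnLEF1 against Mock, 1 higher and 2 lower: S100A4 rose, and S100A3 and S100A14 fell. Over all tested genes, 2.23% were called (1.35% higher, 0.875% lower). The 10 genes were chosen with earlier results of these data known. Their counts, here and below, are therefore not a neutral sample to set beside the shares of all genes. That balance depends on scaling, with 311 genes higher and 201 lower as fitted but 190 higher and 225 lower with median-ratio scaling. The members' median log2 change was -0.08, beside 0.03 over all genes tested. Unadjusted p-values were under 0.05 for these 3 genes alone, beside 15% of tested genes. The groups of 3 did not overlap for the same 3 genes, against 11.7% of all tested genes.

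S100A3, a cysteine-rich member best known from the hair cuticle, had 692.1, 647.0 and 882.6 TPM in SW480 Mock and 119.9, 258.0 and 205.3 TPM in SW480 dnLEF1. Every dnLEF1 library lay below every Mock library. The change was -1.98 ± 0.21 (SE) on the log2(TPM + 1) scale, 3.95-fold lower, with a limma adjusted p of 6.67e-05. With only these 6 libraries in the fit the adjusted p was 0.0533, in a range of 1.79e-05 to 0.0533 over 13 alternatives. In that smaller fit LEF1 itself, the gene of the construct, had an adjusted p of 0.087 (range 0.000737 to 0.087). Where more than 1 cell type contributes RNA, fewer cells of a type and less RNA per cell cannot be told apart.

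S100A4, its neighbour, went the other way in the same tumours, with the values given above and no overlap between the groups. Its log2 change was 0.63 ± 0.13 (SE), 1.55-fold higher (limma adjusted p = 0.0177). As a ratio within each library, S100A3 to S100A4 in TPM was 0.286 to 0.446 in SW480 Mock, 0.0447 to 0.0804 in SW480 dnLEF1 and 0.0207 to 0.0336 in the 12 SW620 libraries. The call for S100A4 was lost with median-ratio scaling (adjusted p = 0.176), with only these 6 libraries in the fit (0.4825), without SW480 dnLEF1 replicate 3 (0.0763) or SW480 Mock replicate 3 (0.0557), and without SW480 Mock replicate 2 and SW620 LRP6KO replicate 1, the libraries with most genes above 0 (0.054). It held in 8 of 13 alternatives, with adjusted p from 0.00172 to 0.4825.

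S100A14, an epithelial member (ENSG00000189334.8; chromosome 1, 153614255 to 153616986), was the least abundant of the 10. It had 18.5, 8.14 and 14.7 TPM in SW480 Mock and 3.87, 7.27 and 3.82 TPM in SW480 dnLEF1, so that the groups came within 1 TPM of each other without overlapping. The log2 change was -1.28 ± 0.32 (SE; limma adjusted p = 0.0478). This call stood in 3 of 13 alternatives (adjusted p from 0.0178 to 0.349) and was lost without SW480 dnLEF1 replicate 1 or 3 and without SW480 Mock replicate 1 or 3.

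The other 7 genes did not pass the test in SW480. S100A6 (calcyclin, which binds CACYBP) changed by 0.10, S100A13 (a carrier in the release of FGF1 and interleukin 1α) by 0.03, S100A16 by -0.03 and S100A11 (an annexin partner) by -0.13 on the log2 scale. S100A2, a p53-regulated epithelial gene, changed by -0.19 and S100A10, the light chain of the annexin A2 tetramer, by -0.20. Their 95% intervals lay within -0.53 and 0.42. For S100P, a member secreted by several carcinomas, the interval ran from -0.35 to 1.42, with 6.22, 1.30 and 2.22 TPM in Mock and 2.74, 11.6 and 2.48 TPM in dnLEF1.

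**Figure D3:**
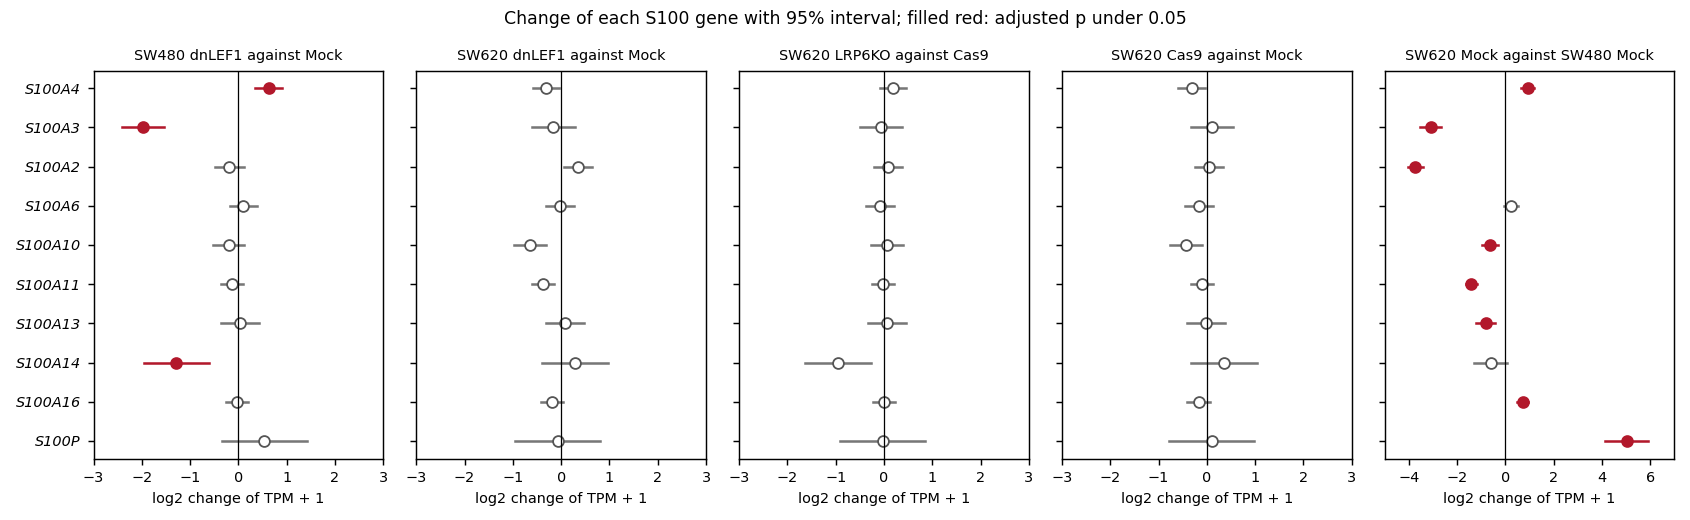
Log2 change of TPM + 1 for each S100 gene in 5 comparisons, with 95% intervals; filled red points have a limma adjusted p under 0.05, and the panel for SW620 against SW480 has a wider axis. In SW480 dnLEF1 the red points are S100A4 (0.63), S100A3 (-1.98) and S100A14 (-1.28), the 3 panels of SW620 against its own controls hold no red point, and the last panel holds 8.

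Of the 11 other S100 genes, 4 passed the filter on low values and 2 of these, S100A9 and S100A7, fell in SW480 dnLEF1, beside 0.875% of all tested genes. S100A7 passed the filter only through its SW480 Mock libraries, where it was high. A fall was thus favoured by the filter, and the 2 shares are not a fair comparison. S100A9 was above 1 TPM in every library of both SW480 groups. S100A9, a subunit of calprotectin that is abundant in neutrophils, had 87.8, 25.0 and 90.0 TPM in SW480 Mock and 12.9, 9.07 and 15.3 TPM in SW480 dnLEF1 (log2 change -2.17 ± 0.36, SE; limma adjusted p = 0.00443). The call was lost with a pseudocount of 0.1 (adjusted p = 0.0507) and with only these 6 libraries in the fit (0.181), in a range of 1.3e-05 to 0.181 over 13 alternatives. S100A9 was listed at 0 in all 12 SW620 libraries. Its calprotectin partner S100A8 did not pass the filter. Myeloid markers other than S100 genes (CSF3R, FCGR3B, CD14 and ITGAM) summed to 9.05 to 12.2 TPM in SW480 Mock and 7.42 to 11.1 in SW480 dnLEF1, but the 4 genes differed in direction, and none of the 3 that were tested passed (FCGR3B was under the filter). CSF3R, a neutrophil gene, had a mean of 3.60 TPM in Mock and 0.747 in dnLEF1 (log2 change -1.30 ± 0.57, SE; adjusted p = 0.285), and FCGR3B 1.24 and 0.30 TPM. CD14, a monocyte gene, had 3.10 and 5.87 TPM (0.75 ± 0.29, SE; adjusted p = 0.223), and ITGAM 2.30 and 1.96 TPM. S100A8 had 0.80 and 0.227 TPM, and S100A12 was at 0. The only human cells injected were SW480 or SW620 carcinoma cells, so these human readings do not count myeloid cells. How the readings arose, and whether the same holds for S100A9, was not tested. S100A7 (psoriasin), named after its values were seen, was called at 2.21, 1.48 and 10.6 TPM against 1.01, 0 and 0 TPM (-1.84 ± 0.46, SE; adjusted p = 0.0481). That call stood in 3 of 13 alternatives and was lost without SW480 dnLEF1 replicate 2 or 3 and without SW480 Mock replicate 1 or 3. S100A5, whose gene lies between S100A6 and S100A4, had 10.7, 9.04 and 4.32 TPM in Mock and 2.43, 1.09 and 4.89 TPM in dnLEF1, which overlap (-1.30 ± 0.39, SE; adjusted p = 0.104).

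Along chromosome 1, S100A4 stood between neighbours with other changes. The annotated 5′ end of S100A3 lies 0.76 kb and that of S100A6 13.9 kb to the lower-coordinate side of that of S100A4, and S100A2 begins 17.8 kb to the other side. These ends are those of the whole annotated loci, and the S100A4 locus begins with its long transcript. By the RefSeq starts of the windows above, S100A3 instead starts 3.45 kb to the higher-coordinate side of S100A4. From the first to the last of the chromosome 1 genes followed here (151982915 to 153631360) the annotation holds 67 genes that are not S100 genes, of which 6 were tested. PRR9, a proline-rich epidermal gene, fell in SW480 dnLEF1 from a mean of 12.1 to 2.77 TPM (log2 change -1.66 ± 0.42, SE; limma adjusted p = 0.049), and the other tested neighbours were not called. This was 1 of 6 tested neighbours, beside 0.875% of all tested genes called lower. The PRR9 call stood in 4 of 13 alternatives and was lost when SW480 dnLEF1 replicate 1 or 3, or SW480 Mock replicate 1 or 2, was left out. It was also lost with a pseudocount of 0.1 (limma adjusted p = 0.26), no filter (0.103), only the groups compared (0.4445) and the replicate block (0.0645). The mean of PRR9 in SW620 Mock was 0.06 TPM.

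**Figure D4:**
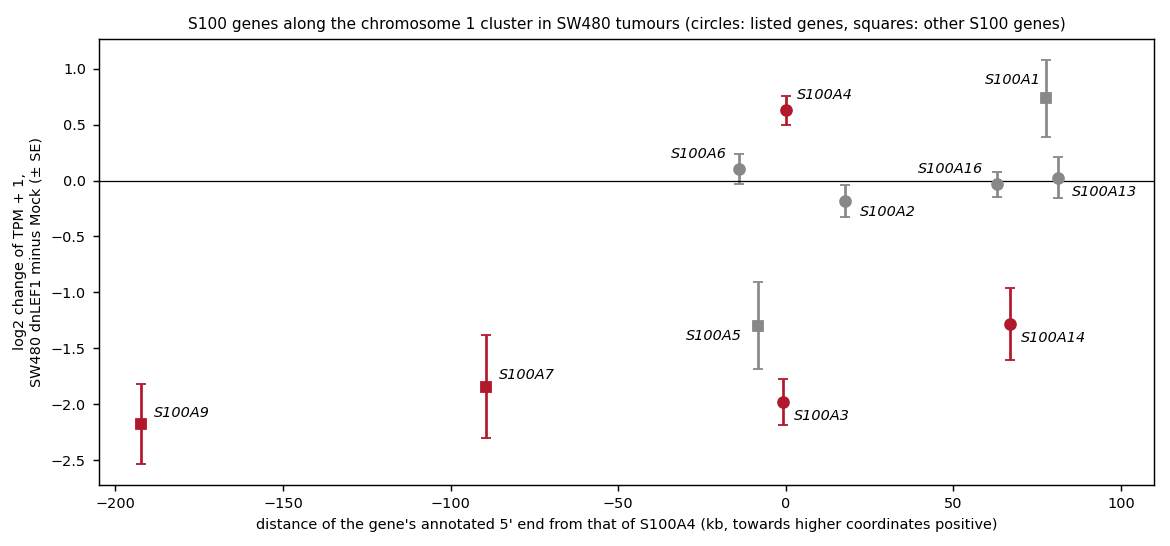
Log2 change (± SE) of S100 genes in SW480 dnLEF1 against Mock, plotted by distance in kb of each gene's annotated 5′ end from that of S100A4; circles are the genes followed here, squares other S100 genes, red points have an adjusted p under 0.05, and S100A10 and S100A11 lie further off. S100A4 (0.63) and S100A3 (-1.98) are 0.76 kb apart by these locus ends, though 3.45 kb apart and in the other order by RefSeq starts; S100A6 (0.10) and S100A2 (-0.19) lie further out.

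Among 28 genes of known S100 partners, receptors and related enzymes, 27 were tested and 4 passed in SW480 dnLEF1, 3 higher and 1 lower, beside 1.35% of all tested genes called higher and 0.875% lower. PLAT, tissue plasminogen activator, rose from 26.4, 20.2 and 23.0 TPM to 49.3, 88.1 and 88.2 TPM (log2 change 1.61 ± 0.27, SE; limma adjusted p = 0.0054). SYT1, a synaptotagmin found in complex with S100A13 and FGF1, rose by 1.06 ± 0.21 (SE) from a mean of 2.17 TPM (adjusted p = 0.015). PPFIBP1, which encodes the S100A4-binding protein liprin β1, fell (log2 change -0.71 ± 0.14, SE), from 146.2, 107.4 and 93.9 TPM to 66.6, 66.9 and 74.1 TPM (adjusted p = 0.012). BSG (basigin, a receptor for extracellular S100A9), outside the naming rule and added after its values were seen, rose by 0.57 ± 0.12 (SE; adjusted p = 0.0211). With only these 6 libraries in the fit none of the 4 was called. SYT1 stood in 9 of 13 alternatives (adjusted p from 0.000403 to 0.4825), and also lost its call with library weights, without SW480 dnLEF1 replicate 2, and without the libraries with most genes above 0. BSG stood in 7 of 13 (0.0125 to 0.456), and also lost its call with median-ratio scaling, with library weights, and without SW480 dnLEF1 replicate 2 or 3 or SW480 Mock replicate 3. Other known targets did not pass: MYH9, the heavy chain of non-muscle myosin IIA, changed by -0.07, ANXA2 by -0.19, ANXA11 by 0.37, CACYBP by -0.06, S100PBP by -0.23, FGF1 by 0.23 and AGER by 0.11. IL1A, at a mean of 0.0911 TPM, was under the filter. In the same comparison 2 of 7 tested epithelial markers were called lower, KRT19 with a log2 change of -0.66 and CDX2 with -1.62, beside 0.875% of all tested genes. The list was mixed, with 3 of the 7 above 0, 4 below 0 and a median of -0.08. Means rose from Mock to dnLEF1 for EPCAM (476.4 to 563.9 TPM), CDH1 (11.02 to 18.32) and VIL1 (79.59 to 88.84). KRT19 was called in 10 of 13 alternatives (adjusted p from 0.00722 to 0.412), and not without SW480 Mock replicate 2 and SW620 LRP6KO replicate 1. CDX2 was called in 11 of 13 (0.00184 to 0.0836). Their part in the S100 changes was not tested.

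In SW620 tumours none of the 10 genes was called in dnLEF1 against Mock, where 0.165% of all tested genes were (0.0566% higher, 0.109% lower). The 13 higher and 25 lower calls became 21 higher and 17 lower with median-ratio scaling. Unadjusted limma p-values were under 0.05 for 4 of the 10, beside 8.1% of all tested genes. The members' median log2 change was -0.12, the same as the -0.12 over all genes tested, and 6 of 10 had groups that did not overlap, against 20.9% of tested genes. Median-ratio scaling moved the median of all genes by 0.12, to -0.001, so that small negative changes here are measured against a general shift of similar size.

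S100A10 had 1439, 1723 and 1670 TPM in SW620 Mock and 1066, 971.5 and 1047 TPM in SW620 dnLEF1, with no overlap (log2 change -0.64 ± 0.15, SE; limma adjusted p = 0.159). It was called with only these 6 libraries in the fit (adjusted p = 0.0266) and with library weights (0.00357), in a range of 0.00357 to 0.534 over 13 alternatives. S100A11 had 1096, 1402 and 1382 TPM in Mock and 1014, 971.1 and 1001 TPM in dnLEF1 (-0.37 ± 0.11, SE; adjusted p = 0.297), and was called with library weights alone (0.0238; range 0.0238 to 0.781). S100A4 was lower in each dnLEF1 library than in each Mock library, without passing the test (-0.31 ± 0.13, SE; adjusted p = 0.53), and S100A2 was higher (0.35 ± 0.14, SE; adjusted p = 0.514). S100A3, with 82.7, 90.2 and 82.6 TPM in Mock and 79.3, 71.3 and 77.8 TPM in dnLEF1, changed by -0.16, with a 95% interval from -0.60 to 0.28. None of the 27 tested partner genes was called. ANXA2, the partner of S100A10, had a mean of 1661 TPM in dnLEF1 against 2151 TPM in Mock (-0.37 ± 0.17, SE; adjusted p = 0.582). All 7 tested epithelial markers were lower in SW620 dnLEF1, with a median log2 change of -0.65, about that of S100A10. Unadjusted limma p-values were under 0.05 for all 7, beside 8.1% of tested genes in this comparison. Groups did not overlap for 6, against 20.9% of tested genes, among them KRT8 (-0.65), KRT18 (-0.65), EPCAM (-0.53) and CDH1 (-0.83). KRT19 alone passed the test (log2 change -0.89; not called without SW620 Mock replicate 2, adjusted p = 0.0535, or with median-ratio scaling, 0.0751; range 0.000148 to 0.0751). Cas9, the other SW620 control, had 5 of these 7 markers lower and 2 higher than the same Mock libraries, with a median log2 change of -0.37. There, unadjusted limma p-values were under 0.05 for 4, beside 5.02% of tested genes. Groups did not overlap for 5, against 14.2% of tested genes. ANXA2 had a mean of 1627 TPM in Cas9. Mitochondrial coding genes took 4.87% to 6.06% of the human pool in dnLEF1 against 3.75% to 4.03% in Mock, and 4.728% to 5.705% in Cas9. Their part in these values was not tested.

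The dnLEF1 change of 2 of the 10 genes differed between the lines by limma's test of the difference itself, in which 0.718% of all tested genes were called, 0.178% with a higher and 0.54% with a lower change in SW620 (41 and 124 genes, or 54 and 54 with median-ratio scaling). For S100A3 the change in SW620 minus that in SW480 was 1.82 ± 0.29 on the log2 scale (SE; adjusted p = 0.00838). For S100A4 it was -0.94 ± 0.18 (SE; adjusted p = 0.0251). S100A4 had thus risen in SW480, where the Mock mean was 2129 TPM, and was lower without passing the test in SW620, where the Mock mean was 4021 TPM. Its mean in SW620 dnLEF1 (3234 TPM) was close to that in Cas9, the other SW620 control (3237 TPM), so the SW620 change depends on the control used. The S100A3 difference was lost with only the dnLEF1 and Mock libraries in the fit (adjusted p = 0.0506, range 0.00132 to 0.0506 over 19 alternatives). The S100A4 difference held in 10 of 19 alternatives (range 0.00198 to 0.305), and was lost with median-ratio scaling, with no filter, with only these groups, and without SW480 dnLEF1 replicate 3, any 1 SW620 dnLEF1 library, or SW620 Mock replicate 2 or 3. The change of S100A14 differed by 1.57 ± 0.45 (SE), which did not pass (adjusted p = 0.127).

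The CRISPR arm gave no call among the 10 genes in LRP6KO against Cas9, nor among any tested gene (0%). At an unadjusted limma p under 0.05 there was 1 member, beside 3.33% of tested genes. That gene was S100A14, with 11.2, 7.67 and 15.0 TPM in Cas9 and 4.38, 6.67 and 4.63 TPM in the libraries labelled LRP6KO (log2 change -0.95 ± 0.32, SE; adjusted p = 1). S100A4 also did not overlap, with each LRP6KO library above each Cas9 library (0.18 ± 0.13, SE; adjusted p = 1), which makes 2 of 10 against 9.67% of tested genes. The 95% intervals of the 7 genes other than S100A14, S100P and S100A3 lay within -0.37 and 0.46.

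Between the SW620 controls, Cas9 against Mock, limma called 0 of the 10 genes and 0% of tested genes. Unadjusted p-values were under 0.05 for 2 of the 10, S100A10 (log2 change -0.44 ± 0.15, SE) and S100A4 (-0.31 ± 0.13, SE), beside 5.02% of tested genes. In 4 of 10 the groups did not overlap (S100A4, S100A6, S100A10 and S100A16), against 14.2% of tested genes. This comparison shares the SW620 Mock libraries with SW620 dnLEF1 against Mock, where S100A4 changed by -0.31 and S100A10 by -0.64.

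The lines themselves differed in 8 of the 10 genes in SW620 Mock against SW480 Mock, 3 higher and 5 lower in SW620. In this comparison 23.9% of all tested genes were called, 10.9% higher and 12.9% lower, with the same limit that the 10 genes were not a neutral sample. Groups did not overlap for the same number, 8 of 10, against 35.4% of tested genes. Unadjusted p-values were under 0.05 for the same 8, beside 34% of tested genes, and the members' median log2 difference was -0.63 beside -0.14 over all genes. Each of these 8 calls stood in all 13 alternatives.

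S100P (ENSG00000163993.6; chromosome 4, 6693069 to 6697170, plus strand) had the greatest difference of the 10, with 109.2, 122.2 and 134.1 TPM in SW620 Mock and 6.22, 1.30 and 2.22 TPM in SW480 Mock (log2 difference 5.02 ± 0.42, SE; limma adjusted p = 1.89e-07). Its lowest SW620 library in any group had 97.4 TPM and its highest SW480 library 11.6 TPM. S100A4 was 1.89-fold higher in SW620 (0.92 ± 0.13, SE; adjusted p = 6.12e-05). S100A16, a widely expressed member, had 815.6, 837.3 and 793.5 TPM in SW620 Mock and 539.2, 501.3 and 451.3 TPM in SW480 Mock (0.72 ± 0.11, SE; adjusted p = 1.35e-04).

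S100A2 showed the opposite pattern, with 76.0, 86.8 and 72.3 TPM in SW620 Mock and 940.8, 1084 and 1125 TPM in SW480 Mock, a 13.2-fold difference (-3.73 ± 0.14, SE; adjusted p = 3.92e-11). S100A3 was 8.54-fold lower in SW620 (-3.09 ± 0.21, SE; adjusted p = 1.67e-08). S100A11 had 1096, 1402 and 1382 TPM in SW620 Mock against 3252, 3496 and 3497 TPM in SW480 Mock (-1.41 ± 0.11, SE; adjusted p = 8.54e-08). S100A13 and S100A10 were lower by smaller amounts, -0.81 and -0.65. Exon bases of S100A13 overlap those of S100A1 on the other strand (235 of 2216), and whether counting used strand is not given in the sources used here; S100A1 had a mean of 0.473 TPM.

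S100A6 (0.22 ± 0.14, SE; adjusted p = 0.274) and S100A14 (-0.60 ± 0.32, SE; adjusted p = 0.201) were not called between the lines, although S100A6 was called without SW480 Mock replicate 3 (0.0332; range 0.0332 to 0.626). Over the 6 groups, the means of S100A6 ran from 2696 to 3204 TPM. Of the partner genes, 12 of 27 differed between the lines, 6 higher and 6 lower in SW620, beside 10.9% and 12.9% of all tested genes. ANXA6 (-3.02), SYT1 (3.83) and PLAUR, the urokinase receptor (-2.61), had the smallest p. ANXA11 was higher in SW620 by 1.63 and CACYBP by 1.09. ANXA2 was lower (-0.61), but not by the test without SW480 Mock replicate 2 (adjusted p = 0.062) or without the libraries with most genes above 0 (0.0726; range 0.00424 to 0.0726). FGF1 was lower (-1.12) and called in 6 of 13 alternatives (0.023 to 0.149), not without SW480 Mock replicate 1 or 2 or SW620 Mock replicate 1 or 3. Its call was also lost with no filter (limma adjusted p = 0.0881) and with only the groups compared (0.0659). FGF1 passed the filter on low values only through its SW480 libraries, so a lower reading in SW620 was favoured by the filter. It is among the 6 lower genes counted above, which limits that count beside the share of all genes. AHNAK, a large scaffold bound by S100A10 with annexin A2, lies outside the naming rule, and other called partners with a smaller p are not named here. It was lower in SW620 and called in 12 of 13 alternatives, not without SW620 Mock replicate 2 (0.0537).

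Over the 18 libraries, the profile of S100A4 was most like those of GABARAP, PEBP1, MRPL34, C11orf98 and PPP2R2A among 7922 genes with a mean of at least 10 TPM. The measure was the root mean square difference of log2(TPM + 1) after each gene was centred on its own mean. It was 0.14 for GABARAP and 0.17 for PPP2R2A, against a median of 0.45 over the candidates and 0.32 for the spread of S100A4 around its own mean. GABARAP, for example, had means of 287.2 TPM in SW480 Mock, 433.2 in SW480 dnLEF1 and 493.0 in SW620 Mock. The libraries share their groups and their scaling, so this is a description of 6 group levels with 3 libraries each.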

How the data were processed

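RNA from 18 xenograft samples in 6 groups of 3 was read from the human gene table. Per the submitters' processing notes, the authors used Trimmomatic 0.35, Bowtie 1.2 and RSEM 1.2.31 with hg38 and mm10, and Smart-seq2 libraries were made per the labels' protocols from RNA with an integrity number of at least 9. How human and mouse reads were told apart, and whether strand was used, is not given in the sources used here. The deposited values are TPM per human gene, which summed to 1000000 per library within rounding. TPM keeps no depth, so no counting interval is given. The mouse table, with the PBS samples, was not used here.

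Of 58381 identifiers, 45 chromosome Y copies of pseudoautosomal genes, all at 0, were left out. Symbols and positions came from GENCODE 29, joined by unversioned identifier (58216 matched), and promoter sequences from RefSeq (GRCh38.p14). A gene entered the test when 3 or more libraries reached 1 TPM (22981 genes). The test was limma-trend (limma 3.58.1, R 4.3.3) applied to log2(TPM + 1), in 1 fit that held the means of all 6 groups. The spread is thus pooled over both lines. Benjamini-Hochberg adjustment ran over all tested genes within each of 6 comparisons, at a threshold of 0.05; a difference of changes is a contrast of the same fit. Fold changes refer to TPM + 1 and understate the change of low genes. The code was tested on simulated data.

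Named were the 10 S100 genes, other S100 genes with a mean of at least 1 TPM, 8 partner genes whatever their value and up to 3 called partners and chromosome 1 neighbours per comparison with the smallest p, and the 5 genes most like S100A4. The members and lists were chosen with earlier results of these data known. Alternatives were a pseudocount of 0.1, no filter, median-ratio scaling, only the groups compared, weighted libraries, a block for replicate number, and leaving out each library in turn. Leaving out the 2 libraries with most genes above 0 was chosen after seeing the data. Python 3.11.15, numpy 2.4.6, pandas 2.3.3 and matplotlib 3.10.9 were used around the fits.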

Additional observations from a re-analysis of the deposited data

Results flagged for a closer look

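The dnLEF1 change of S100A3 and that of S100A4 differed between SW620 and SW480 by limma's test of the difference. For S100A3 the change in SW620 minus that in SW480 was 1.82 on the log2 scale (-0.16 in SW620, -1.98 in SW480). For S100A4 it was -0.94 (-0.31 in SW620, 0.63 in SW480). The SW620 change of S100A4 is against Mock, and the dnLEF1 mean (3234 TPM) was close to that of Cas9 (3237 TPM). No sample was excluded as an outlier in the main fit. The alternatives left out each library of the compared groups in turn, weighted the libraries, and left out the 2 libraries with most genes above 0.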

How the results depend on the processing

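Over 840 alternatives of 60 changes of the 10 genes, 809 kept their side of the threshold, 26 lost and 5 gained a call, and 0 called changes reversed. Of the 809, 39 were called in neither fit and differed in sign. In SW480 dnLEF1 against Mock, the count of S100 genes called, 3, became 1 with median-ratio scaling and 0 with only the groups compared, and ranged from 1 to 3 with a library left out. In SW620 dnLEF1 the count of 0 became 1 with only the groups compared (S100A10) and 2 with library weights. For the difference of changes, 2 became 1 with no filter, 1 with median-ratio scaling and 0 with only the groups compared, and ranged from 1 to 3 with a library left out. The counts for LRP6KO (0), Cas9 against Mock (0) and the lines (8) kept within 1.5 times under each alternative. With only the groups compared fewer libraries enter the fit. The cause of the moves was not tested for any setting.

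The spread is larger in SW480, with a median SD of log2(TPM + 1) of 0.35 in dnLEF1 and 0.41 in Mock, than in the SW620 groups (0.23 to 0.30), and the pooled fit averages over both. Same-numbered samples did not deviate together (correlations from -0.13 to 0.12), so the numbers do not pair them. With the replicate block, 2 S100 genes were called in SW480 (S100A3 and S100A4) and 2 in the difference.

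Counts over all genes moved by more than 1.5 times in places. In SW480 dnLEF1, 512 became 333 with a pseudocount of 0.1, 29 with only the groups compared and 261 with library weights, and 272 to 1223 with a library left out. In SW620 dnLEF1, 38 became 21, 120 and 394 under the same settings, and 17 at the lowest with a library left out. For the difference, 165 became 108 with median-ratio scaling, 43 with only the groups compared, 358 with weights and 312 without the libraries with most genes above 0, and 66 to 781 with a library left out. For LRP6KO, 0 became 10 with only the groups compared and 1 with weights. For Cas9 against Mock, 0 became 1 with no filter, 8 with only the groups compared, 101 with weights and 1 without SW620 Mock replicate 1.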
